A study of Mus musculus with 8 samples.

Results

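The 9 genes described here, Lyz2, Chil3, Saa3, S100a8, S100a9, Lcn2, Ngp, Camp and Ltf, encode proteins that myeloid cells secrete or store in granules and proteins of the acute-phase response. They were chosen by name with the genotype comparison of these arrays already known, so their levels and differences are a description and carry no test. Each of the 9 had 1 probe set with a single gene symbol, among 22180 genes and 41345 probe sets in all. The study put naive CD4+CD62L+ T cells of both genotypes, in equal numbers, into Rag1-/- mice, which develop colitis after such a transfer and which form no T or B cells of their own but keep their own myeloid cells. The wt group (4 arrays) held C57BL/6 cells marked by CD45.1, and the Irak1-/- group (4 arrays) held C57BL/6 cells marked by CD45.2 and lacking the kinase IRAK1. Both were sorted as CD3+CD4+ cells from the mesenteric lymph nodes, CD45.1+ CD45.2- or CD45.1- CD45.2+, 14 days after transfer, with a stated purity above 99.5%. The experiment was done 4 times, each time with 2 recipients pooled and 1 array of each genotype made, so that batch numbers tie the arrays into 4 pairs. Genotype and CD45 gate ran together on all arrays and cannot be told apart, and neither the age of the recipients nor their CD45 form is stated in the labels.

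Lysozyme, encoded by Lyz2, is a bacterial cell wall hydrolase of macrophages and neutrophils, and Chil3 encodes a chitinase-like protein secreted by macrophages and neutrophils. Saa3 is an inducible serum amyloid A, an apolipoprotein made in inflamed tissue by macrophages and epithelium. S100a8 and S100a9 encode the subunits of calprotectin, a calcium- and metal-binding complex that fills the cytosol of neutrophils and monocytes and is used as a stool marker of gut inflammation. Lcn2 (a lipocalin that captures bacterial siderophores), Ngp (neutrophilic granule protein), Camp (the cathelicidin precursor) and Ltf (the iron-binding lactoferrin) are stored in the specific granules of neutrophils, whose genes are transcribed mainly in bone marrow precursors. T cells are not a usual source of these proteins.

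Levels are log2 probe set values, and the array medians lay at 4.25 to 4.31. Correlations among 7 of the arrays ran from 0.969 to 0.981, while the Irak1-/- array of replicate 3 stood apart, with correlations of 0.950 to 0.957. Irak1 itself read 6.39 to 7.16 on wt arrays and 6.61 to 7.0 on Irak1-/- arrays, and the labels do not say which exons the deletion removed, so the level is no check of genotype. The defining markers of CD4+ T cells were far above the array medians. Cd3d, Cd3e, Cd3g and Cd4 had mean levels of 11.28, 10.73, 11.03 and 9.04 in wt and 11.24, 10.69, 10.98 and 8.92 in Irak1-/- arrays. Nothing in the labels says which litters or donor mice gave the cells, so the spread between arrays covers these 4 experiments alone.

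The upstream sequences of the 5 genes with the highest levels on the Irak1-/- arrays are shown first, because their differences between the genotypes are the ones described in most detail. Each is the 250 bases before the transcription start in RefSeq (GRCm38.p6), 5′ to 3′ on the gene's strand, and all 9 genes had such an entry. Capitals mark matches, on either strand, to 4 short motifs of factors active in myeloid cells or inflammation, namely TTGCNNAA (C/EBP), GAGGAA (PU.1), TTCNNNGAA (STAT) and the NF-kappaB consensus.
Lyz2, chr10:117282273-117282522, minus strand: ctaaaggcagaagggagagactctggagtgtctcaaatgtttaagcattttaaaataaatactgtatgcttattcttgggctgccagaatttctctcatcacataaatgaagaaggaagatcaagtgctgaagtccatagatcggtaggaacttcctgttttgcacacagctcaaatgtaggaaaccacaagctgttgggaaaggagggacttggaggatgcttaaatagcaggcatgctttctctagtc
Chil3, chr3:106167565-106167814, minus strand: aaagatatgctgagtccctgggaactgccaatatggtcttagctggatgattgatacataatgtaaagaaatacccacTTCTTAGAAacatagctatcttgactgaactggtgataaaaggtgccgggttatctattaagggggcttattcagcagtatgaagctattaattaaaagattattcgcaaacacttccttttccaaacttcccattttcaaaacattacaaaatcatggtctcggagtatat
Saa3, chr7:46715677-46715926, minus strand: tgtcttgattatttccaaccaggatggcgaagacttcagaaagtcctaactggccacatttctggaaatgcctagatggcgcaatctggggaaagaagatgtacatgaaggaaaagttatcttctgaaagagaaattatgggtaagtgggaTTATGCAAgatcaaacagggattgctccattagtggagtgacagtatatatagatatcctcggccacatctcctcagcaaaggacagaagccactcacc
S100a8, chr3:90668821-90669070, plus strand: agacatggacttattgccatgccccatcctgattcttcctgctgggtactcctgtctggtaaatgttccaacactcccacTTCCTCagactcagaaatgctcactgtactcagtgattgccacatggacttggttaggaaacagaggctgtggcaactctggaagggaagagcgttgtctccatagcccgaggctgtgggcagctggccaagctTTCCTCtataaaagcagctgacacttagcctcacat
S100a9, chr3:90695722-90695971, minus strand: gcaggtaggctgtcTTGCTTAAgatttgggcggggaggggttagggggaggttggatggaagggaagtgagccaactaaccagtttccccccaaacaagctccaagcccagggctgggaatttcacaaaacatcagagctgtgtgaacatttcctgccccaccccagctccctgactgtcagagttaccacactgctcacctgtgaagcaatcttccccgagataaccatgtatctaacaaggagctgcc
The Saa3 sequence holds a C/EBP match that starts 99 bases before the transcription start, and the S100a9 sequence holds one at 236 bases. The S100a8 sequence has PU.1 matches at 170 and 36 bases, and the Chil3 sequence has a STAT match at 172 bases. None of the 4 motifs occurs in the Lyz2 or Camp window. Over the 9 genes, the C/EBP motif was found upstream of 5 (Saa3, S100a9, Lcn2, Ngp and Ltf), the PU.1 motif of 3 (S100a8, Lcn2 and Ltf), the STAT motif of 1 (Chil3) and the NF-kappaB motif of 0. No 2 of these matches overlapped. Among 32851 upstream windows of the same length, 9.56% held the C/EBP motif, 23.3% the PU.1 motif, 7.02% the STAT motif and 3.9% the NF-kappaB motif. A match is a string of letters and does not show binding, and the lack of one says only that the letters are not in this window.

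Lyz2 and Chil3, the lysozyme and chitinase-like genes of macrophages, were higher on every Irak1-/- array than on any wt array. Lyz2 read 4.59, 2.34, 4.33 and 4.10 on the wt arrays of replicates 1 to 4 and 7.34, 7.30, 8.78 and 8.58 on the Irak1-/- arrays. The groups lay far apart, and within the Irak1-/- group replicates 3 and 4 read above replicates 1 and 2. The mean difference, Irak1-/- minus wt, was 4.16 ± 0.97 (SD, n = 4 pairs), or 17.9-fold, with single pairs between 2.75 and 4.96. Pair 2 had the highest difference, and its wt array the lowest level. Chil3 read 2.86, 4.51, 4.45 and 4.47 on wt arrays and 5.84, 6.33, 7.0 and 8.18 on Irak1-/- arrays. The wt arrays of replicates 2 to 4 were nearly alike and replicate 1 lay below them, while the Irak1-/- arrays spread widely. The mean difference was 2.77 ± 0.79, or 6.81-fold, with pairs between 1.82 and 3.72. In sorted bulk RNA, fewer cells of a type and less RNA per cell cannot be told apart, and no background level is known here, so folds that start from wt levels near or under the array median are of uncertain size.

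**Figure D1:**
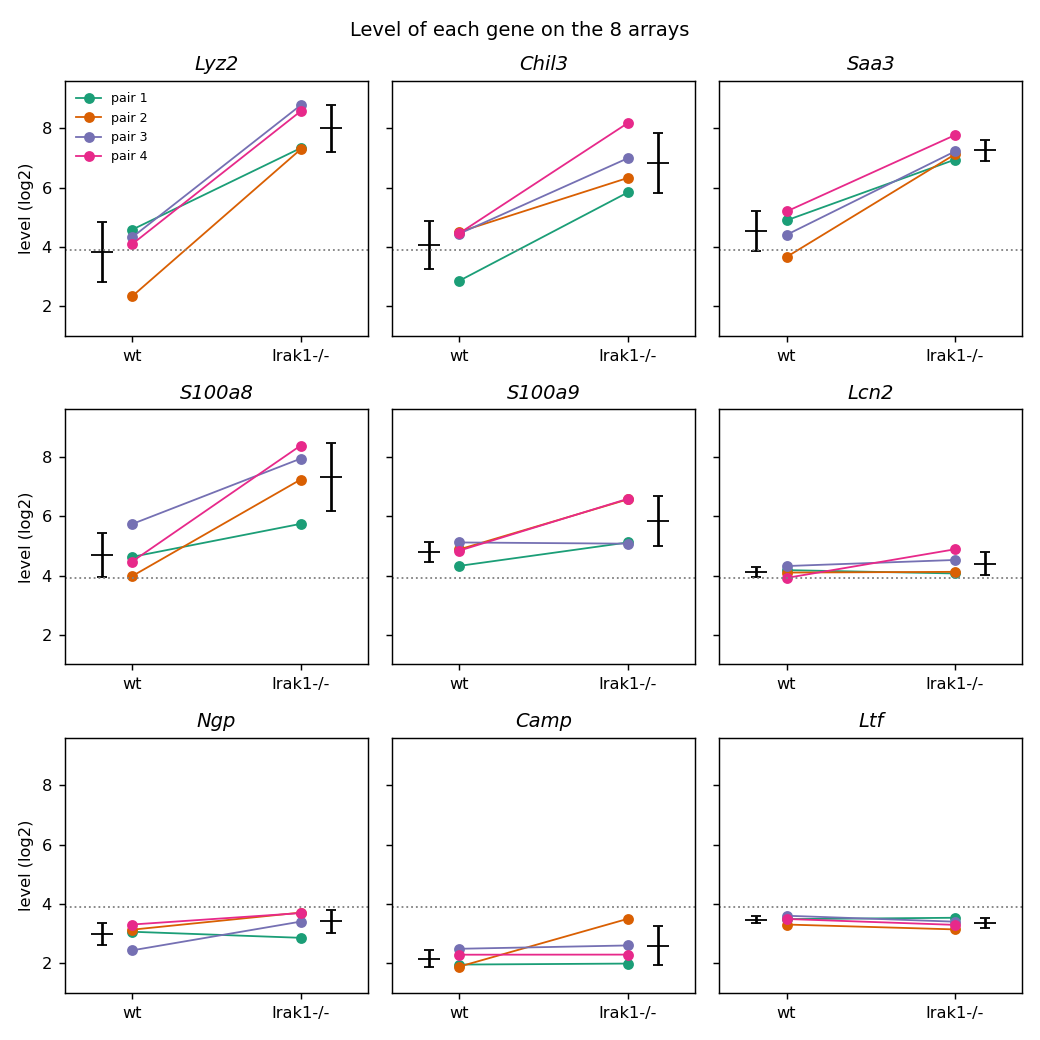
Level (log2) of each of the 9 genes on wt and Irak1-/- arrays, with lines joining the 2 arrays of a pair, bars for mean ± SD (n = 4) and a dotted line at 3.90, the lowest mean level tested. Lyz2, Chil3, Saa3 and S100a8 separate the groups, with Irak1-/- means between 6.84 and 8.0, while Ngp, Camp and Ltf stay under the line in every array.

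Saa3, the serum amyloid A of inflamed tissue, had a smaller SD across Irak1-/- arrays (0.356) than Lyz2 (0.793), Chil3 (1.01) or S100a8 (1.16). It read 4.90, 3.66, 4.41 and 5.20 on wt arrays and 6.95, 7.13, 7.23 and 7.78 on Irak1-/- arrays. The groups lay well apart, with the wt array of replicate 4 nearest to the Irak1-/- arrays. The mean difference was 2.73 ± 0.59, or 6.62-fold, with pairs between 2.05 and 3.46. None of its listed paralogs could be tested. Saa4 had a mean of 2.83 in wt and 2.72 in Irak1-/- arrays, under the level filter, and Saa1 had no probe set with a single symbol. Saa2, also under the filter, was between 1.91 and 3.70 on 7 arrays and read 5.17 on the Irak1-/- array of replicate 3. It is named after its values were seen.

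The calprotectin genes differed from each other in how far the groups overlapped. S100a8 read 4.63, 3.98, 5.74 and 4.47 on wt arrays and 5.74, 7.24, 7.94 and 8.38 on Irak1-/- arrays. The groups nearly touched, since the wt array of replicate 3 and the Irak1-/- array of replicate 1 both read 5.74 after rounding. The mean difference was 2.62 ± 1.23, or 6.16-fold, with pairs between 1.11 and 3.91. S100a9 read 4.32, 4.88, 5.12 and 4.84 on wt arrays and 5.12, 6.57, 5.07 and 6.59 on Irak1-/- arrays. The Irak1-/- arrays of replicates 2 and 4 stood above all others, and those of replicates 1 and 3 lay at the level of the highest wt array. The mean difference was 1.05 ± 0.85, or 2.07-fold, with pairs between -0.04 and 1.75. In pair 3 S100a8 was higher by 2.21 while S100a9 was lower by a difference of -0.04, although the protein subunits form one complex. Whether the responses of the genes differ was not tested.

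The neutrophil granule genes had small differences, and their groups overlapped. Lcn2 read 4.18, 4.10, 4.32 and 3.92 on wt arrays and 4.07, 4.12, 4.52 and 4.89 on Irak1-/- arrays. Its groups overlapped, and the mean difference of 0.27 ± 0.48 came mostly from pair 4, at 0.97. Ngp read between 2.44 and 3.31 on wt arrays and between 2.86 and 3.71 on Irak1-/- arrays, a mean difference of 0.43 ± 0.49. Camp read between 1.89 and 2.49 on wt arrays and at 1.99, 3.50, 2.60 and 2.29 on Irak1-/- arrays, a mean difference of 0.44 ± 0.78, and leaving out pair 2 brought it to 0.0496. Ltf read between 3.31 and 3.60 on wt arrays and between 3.14 and 3.53 on Irak1-/- arrays, a mean difference of -0.13 ± 0.12. The last 3 genes lay under the level filter of 3.90 in every array, so their differences are between dim probe sets. Just inside the filter lay Lcn2, with a mean over all arrays of 4.27, and just outside it Ltf, with 3.41.

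**Figure D2:**
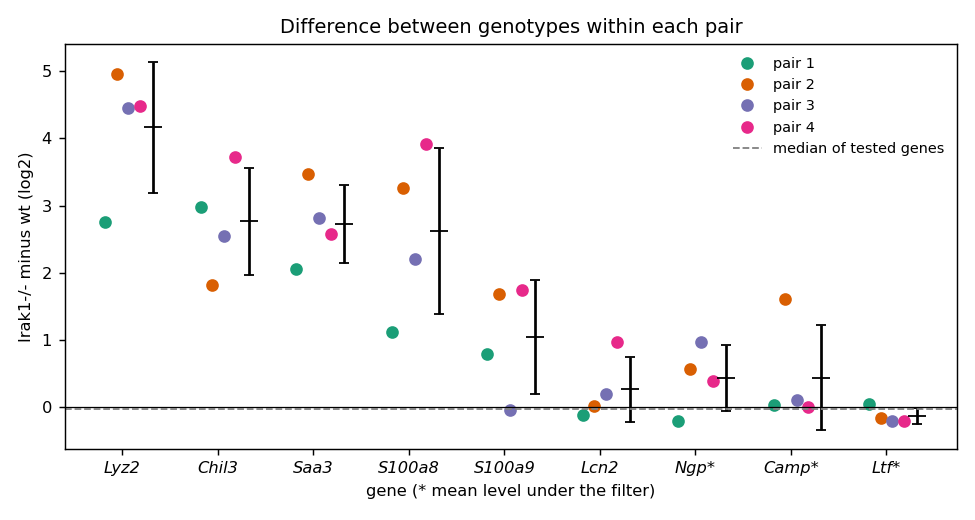
Difference between Irak1-/- and wt arrays (log2) within each of the 4 pairs for the 9 genes, with bars for mean ± SD and a dashed line at -0.03, the median of the tested genes. The means fall from 4.16 for Lyz2 to between -0.13 and 0.44 for Lcn2, Ngp, Camp and Ltf.

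All 9 genes together gave 5 that were higher in 4 of 4 pairs, 3 in 3 pairs and 1, Ltf, in 1 pair. The 5 include Camp, under the level filter, with pair differences of 0.03, 1.61, 0.11 and 0.0032. Of the 6 tested, 4 were higher in all 4 pairs, beside 5.26% of the 13308 tested genes. For 4 of the 9, Lyz2, Chil3, Saa3 and S100a8, every Irak1-/- array lay above every wt array, against 1.17% of tested genes. By mean difference Lyz2 held place 1 among the tested genes, Chil3 place 2, Saa3 place 3 and S100a8 place 4, while S100a9 held place 27 and Lcn2 place 584. In the fit across all genes (limma with the pair as a block, Benjamini-Hochberg), 3 of the 6 tested, Lyz2, Chil3 and Saa3, were called higher at an adjusted p under 0.05 and 0 lower, beside 0.0676% of all tested genes called higher and 0.00751% called lower. Since this contrast chose the genes, nothing is read from these counts. Lyz2, with a wt mean of 3.84, under the level filter, was tested only because of its Irak1-/- arrays, with a mean of 8.0. Without the replicate block the count was 2, as Chil3 had an adjusted p of 0.116. Chil3 was also not called when the Irak1-/- array of replicate 3 was left out of a fit without pairs (adjusted p = 0.304), and S100a8, at 0.0635 over all arrays, was called when pair 1 was left out (0.0136). The Irak1-/- arrays did not rank alike across genes. Replicate 4 was the highest Irak1-/- array for 5 of the 9 (Chil3, Saa3, S100a8, S100a9 and Lcn2), and replicate 1 the lowest for 6 of the 9. The array of replicate 3, which stood apart across all probe sets, was highest for Lyz2 and next to the highest for Chil3, Saa3 and S100a8.

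The summed level of macrophage and monocyte markers was higher on Irak1-/- arrays, though single markers went both ways. The largest differences were those of Tyrobp, Fcer1g and Clec4a3. Over 17 of 18 listed markers with a probe set, the mean level ran from 4.89 to 5.0 on wt arrays and from 5.26 to 5.68 on Irak1-/- arrays (sums of 83.1 to 85.0 and 89.4 to 96.5), higher in 4 of 4 pairs. Of the 13 tested, 10 differences were positive and 3 negative, as were 5570 and 7738 of the 13308 over all tested genes. The median of the 13 was 0.27, against -0.03 for all tested genes, and the lists were chosen with earlier results known. Clec4a3 and Csf1r had wt means of 3.03 and 3.81, under the level filter, and passed it only through their higher Irak1-/- arrays. Both count among the 10 positive differences, so the filter itself favoured positive differences in this list. Beside 0.0676% and 0.00751% of all tested genes, 3 of the 13 rose and 0 fell at a limma adjusted p under 0.05. These were Tyrobp and Fcer1g, adaptors of activating receptors, with differences of 2.47 and 1.89, and Clec4a3, a lectin receptor, with 1.76. Clec4a3 did not pass when pair 2 was left out (adjusted p = 0.258) and was under the level filter when pair 3 or pair 4 was. It also did not pass with quantile normalization (0.0672), with no level filter (0.101) or with every probe set tested (0.0662). Fcgr1, the high-affinity IgG receptor, and Csf1r, the receptor of macrophage growth factor, had 0.84 and 0.72 and did not pass. Adgre1, a macrophage surface receptor, had 0.27, Cd68 0.16 and Itgam 0.05. The chemokine receptor genes Cx3cr1 and Ccr2 had -0.24 and -0.13 and the monocyte antigen gene Ly6c2 -0.13, with Cx3cr1 lower in 4 of 4 pairs, and none of them passed. The wt means of Cx3cr1, Ccr2 and Ly6c2, at 7.74, 9.45 and 9.31, were far above the array medians, as was that of Cd4 (9.04). Which cells gave these signals was not tested. Cd14, Mertk and Ms4a7 were under the level filter, with means between 2.76 and 3.38 in both groups. Dendritic cell and antigen presentation markers had mean levels of 4.91 to 5.04 on wt and 5.22 to 5.43 on Irak1-/- arrays. The largest differences in that list were those of the antigen presentation genes. H2-Aa was higher by 1.74 and called, and H2-Ab1 at 1.77 and H2-Eb1 at 0.82 were not called. Cd209a, Xcr1, Zbtb46 and Siglech had 0.12, 0.11, 0.01 and -0.07, and Flt3, under the level filter, had 0.14. Of the 9 tested in that list 6 differences were positive and 3 negative. Itgax, which encodes CD11c, had -0.59 and was lower in 4 of 4 pairs (limma adjusted p = 0.501), and Batf3, a transcription factor of dendritic cells, had -0.27. The part of such cells in the levels of the 9 genes was not tested.

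Markers of neutrophils overlapped between the genotypes. Over the 18 listed, mean levels ran from 3.31 to 3.47 on wt arrays and from 3.31 to 3.62 on Irak1-/- arrays, and 12 of the 18 were under the level filter. The mean was higher in 3 of 4 pairs. Of the 18, 2 (Csf3r and Mmp8) were higher in 4 of 4 pairs and 0 lower in 4 of 4. Csf3r was under the level filter, so 1 of the 6 tested was higher in 4 of 4 pairs, beside 5.26% of all tested genes. Clec4e, under the level filter, had the largest difference, with means of 2.23 in wt and 2.92 in Irak1-/- arrays. Csf3r, the G-CSF receptor, had means of 3.31 and 3.54 in wt and Irak1-/- arrays, and Ly6g, the surface antigen that defines mouse neutrophils, 3.56 and 3.13. Retnlg and Stfa2l1, abundant in mature neutrophils, had means of 3.14 and 2.64 in wt and 3.46 and 2.97 in Irak1-/- arrays. None of the 6 tested markers was called by limma, and at an unadjusted p under 0.05 there was 1 higher, the collagenase gene Mmp8 (0.32), and 0 lower. Mmp8 had a wt mean of 3.77, under the level filter, and passed it through its Irak1-/- arrays, with a mean of 4.09. The tested precursor markers Elane, Mpo, Prtn3 and Cebpe had differences of -0.14, -0.05, -0.59 and -0.22. Chil5, also in that list, had 0.54 and was higher in 4 of 4 pairs. None of the 5 tested was called by limma, with Chil5 the 1 higher and Prtn3 the 1 lower at an unadjusted p under 0.05. Under the level filter, Ctsg, Ms4a3 and Fcnb had 0.21, 0.09 and -0.11. Mean levels of T cell markers overlapped, at 9.62 to 9.82 on wt and 9.56 to 9.84 on Irak1-/- arrays, as did those of B cell markers, at 3.69 to 3.84 and 3.65 to 3.81. Erythroid and platelet markers, 3 of 8 with a probe set, lay between 3.28 and 3.50 and epithelial and stromal markers between 3.97 and 4.32 over both groups. The B cell and the erythroid and platelet means were lower on Irak1-/- arrays in 4 of 4 pairs, with small mean differences of -0.04 and -0.09. NK and CD8 T cell markers had lower means on Irak1-/- arrays in 4 of 4 pairs (6.08 to 6.30 against 5.71 to 6.06), with none called by limma and, at an unadjusted p under 0.05, 0 of 9 higher and 5 of 9 lower, where all tested genes gave 2.88% higher and 3.82% lower.

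**Figure D3:**
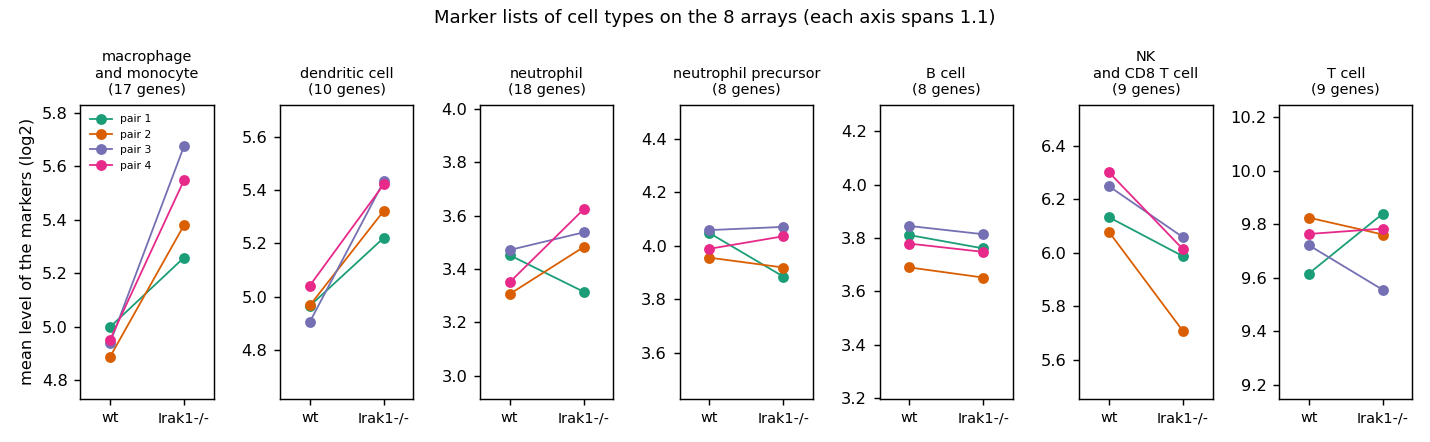
Mean level (log2) of the markers of 7 cell types on wt and Irak1-/- arrays, 1 line per pair and axes of equal span. The means of macrophage and monocyte and of dendritic cell markers are higher on all 4 Irak1-/- arrays, whereas those of neutrophil markers overlap. In the dendritic cell list the largest differences are those of H2-Aa, H2-Ab1 and H2-Eb1.

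Further genes of neutrophil granule and secreted proteins were measured by a list of 28, 16 of them tested. The list also holds genes of proteins that are not secreted, such as the oxidase subunits Cybb, Cyba and Ncf1. None was called by limma, 5 were higher and 2 lower at an unadjusted p under 0.05, where all tested genes gave 2.88% higher and 3.82% lower, and the median difference was 0.07 against -0.03 for all tested genes. The genes with the smallest p were Cybb, a subunit of the oxidase that makes superoxide (1.52, adjusted p = 0.0635), Hp, the hemoglobin-binding haptoglobin (1.22, adjusted p = 0.190), Lrg1, a secreted glycoprotein (0.77, adjusted p = 0.260) and Lyz1, the Paneth cell lysozyme that neighbours Lyz2 (0.50, adjusted p = 0.481). Cybb read between 3.20 and 3.64 on wt and between 4.53 and 5.59 on Irak1-/- arrays, and the groups did not overlap. Cybb, Hp and Mmp8 had wt means of 3.44, 3.79 and 3.77, under the level filter, and passed it through their higher Irak1-/- arrays. Lyz1 read between 4.41 and 5.06 on wt and between 4.71 and 5.77 on Irak1-/- arrays. It is close in sequence to Lyz2, and how far their probe sets share signal is not known from these files.

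Secreted products of monocytes and macrophages were measured by 30 genes, 18 of them tested. None was called by limma, and 7 were higher and 0 lower at an unadjusted p under 0.05, beside 2.88% and 3.82% of all tested genes. Of the 18 differences 14 were positive, as were 5570 of the 13308 over all tested genes, and the median was 0.19. Tgfbi, an extracellular matrix protein, had the smallest p (1.37, limma adjusted p = 0.0559), then Cfb, complement factor B (0.88, adjusted p = 0.0729), C1qb, a chain of complement C1q (0.63, adjusted p = 0.162), and Ctss, the protease cathepsin S (0.43, adjusted p = 0.473). Tgfbi read between 3.48 and 4.52 on wt and between 5.10 and 5.79 on Irak1-/- arrays, and Cfb between 4.51 and 4.96 and between 5.41 and 5.95. For both genes the groups did not overlap.

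The classical acute-phase genes, most of them products of hepatocytes, were mostly too dim to test. Of 25 listed, 15 were under the level filter and 3 had no probe set with a single symbol. Among the 7 tested none was called by limma, and at an unadjusted p under 0.05 there was 1 higher, Hp, and 0 lower. Over all tested genes these shares were 2.88% and 3.82%. The median of the 7 was -0.00475. Orm1, an orosomucoid, had a difference of -0.37 (adjusted p = 0.775), Lbp, the lipopolysaccharide binding protein, -0.23 (adjusted p = 0.778), and Il1rn, the IL-1 receptor antagonist, 0.16 (adjusted p = 0.890). Hp read 3.47 to 4.06 on wt and 4.28 to 5.68 on Irak1-/- arrays, so that, like Saa3, it had all 4 Irak1-/- arrays above all wt arrays. Hp, with a wt mean of 3.79, passed the level filter through its Irak1-/- arrays. Lbp, with an Irak1-/- mean of 3.83, passed it through its wt arrays.

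The other S100 genes had small differences. Of 14 listed, 10 were tested, none was called by limma, and the median was -0.10. At an unadjusted p under 0.05, 0 were higher and 0 lower, beside 2.88% and 3.82% of all tested genes. S100a4, S100a10 and S100a11, which effector T cells express, had mean levels of 11.86, 11.91 and 11.26 on wt arrays and differences of -0.21, -0.23 and -0.14. S100a3 and S100a13 had -0.24 and -0.16, and adjusted p over these genes ran from 0.865 upward. S100a6 and S100a7a, which precede S100a8 in gene order in RefSeq (GRCm38.p6), had differences of -0.01 and -0.06.

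Receptors reported to bind the secreted proteins were tested for 9 of 17 genes, and none was called. Cd69, an activation marker reported to bind S100A8 and S100A9, had a difference of -0.51 (limma adjusted p = 0.335), with every Irak1-/- array below every wt array, as for 1.86% of tested genes. Fpr2, the formyl peptide receptor that binds serum amyloid A and cathelicidin, read 3.94, 4.32, 3.71 and 3.65 on wt arrays and 5.18, 4.16, 5.74 and 5.87 on Irak1-/- arrays. It was higher in 3 of 4 pairs, with a difference of 1.33 (adjusted p = 0.404). Tlr2, a receptor of bacterial lipoproteins, had 0.39 (adjusted p = 0.450), Scarb1, a scavenger receptor, 0.17 (adjusted p = 0.904), and Slc22a17, the reported lipocalin receptor, -0.08. Tlr4, the lipopolysaccharide receptor through which S100A8 and S100A9 are reported to signal, was under the level filter, with means of 3.41 and 3.38. At an unadjusted p under 0.05 there were 2 higher and 1 lower, beside 2.88% and 3.82% of all tested genes.

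Transcription factors and cytokines known to drive these genes were tested for 19 of 24. Il1b, which encodes IL-1 beta, rose by 1.45 (limma adjusted p = 0.00672), reading 3.85 to 4.36 on wt and 5.08 to 5.79 on Irak1-/- arrays, and no gene of the list was called lower. Of the 19 differences 10 were positive and 9 negative, and 4 genes were lower in all 4 pairs, as were 1189 of the 13308 tested genes. At an unadjusted p under 0.05 there were 3 higher and 4 lower, where all tested genes gave 2.88% higher and 3.82% lower. At a limma adjusted p under 0.05, all tested genes gave 0.0676% higher and 0.00751% lower. Csf1, a macrophage growth factor, had -0.54 (adjusted p = 0.267) and Nfkbiz, a nuclear regulator of NF-kappaB targets, -0.46 (adjusted p = 0.465), both with every Irak1-/- array below every wt array. Ifng had -0.62 (adjusted p = 0.404) and Tnf -0.50 (adjusted p = 0.404). Spi1, which encodes PU.1, had 0.42 and was higher in 4 of 4 pairs (adjusted p = 0.493). Cebpb, Cebpd and Cebpa, the C/EBP factors, had 0.32, -0.14 and 0.08, and Cebpe, the factor of specific granule genes, -0.22. Spi1 and the C/EBP genes are named for the motifs above. Il1b no longer passed when pair 2 was left out (limma adjusted p = 0.0529) or when pair 4 was (0.0511), and a filter at the 60th percentile removed it before the test.

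**Figure D4:**
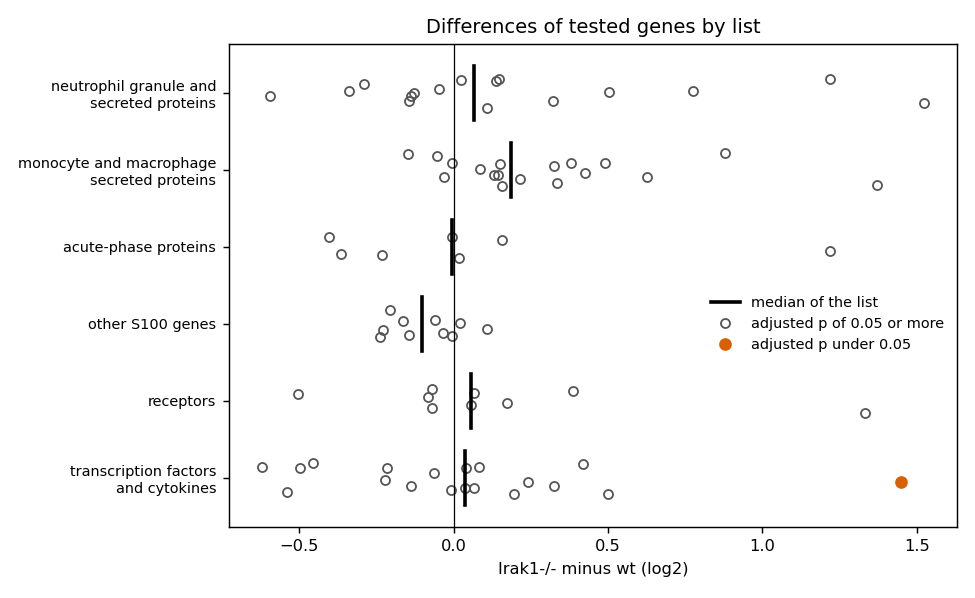
Differences between Irak1-/- and wt arrays (log2) of the tested genes of 6 lists, 1 circle per gene, filled where the adjusted p was under 0.05, with a bar at each median. Il1b is the filled circle at 1.45, and the medians lie between -0.10 and 0.19.

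None of the genes beside the 9 in the genome was called. The 2 nearest protein-coding genes on each side, by their order in GRCm38.p6, came to 32 different genes outside the 9, of which 22 were tested and 0 called by limma. At an unadjusted p under 0.05, 2 of the 22 were higher and 1 lower, beside 2.88% and 3.82% of all tested genes. The differences of the 22 ran from -0.37 for Rtp3, next to Ltf, to 0.54 for Chil5, near Chil3 in the chitinase-like cluster (limma adjusted p = 0.318, higher in 4 of 4 pairs). Chil4, a close copy of Chil3, had means of 1.75 and 1.88, under the level filter. S100a8 and S100a9 are neighbours of each other, and Pglyrp4 beyond S100a9 had means of 3.31 and 3.23, also under the filter.

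The genes whose levels across the 8 arrays were most like those of Lyz2, by the root mean square distance between profiles centred on each gene's mean, were Tyrobp (1.05), Wfdc17 (1.18), Fcer1g (1.31), H2-Aa (1.32) and H2-Ab1 (1.33). For Saa3 they were Fcer1g (0.51), H2-Aa (0.57), Tyrobp (0.59), H2-Ab1 (0.61) and Clec4a3 (0.62), so 4 genes stood on both lists. Wfdc17, a small secreted protein of the whey acidic protein family expressed in macrophages, read 4.36, 4.03, 4.61 and 4.82 on wt and 5.15, 6.56, 7.29 and 7.56 on Irak1-/- arrays. For S100a9, whose Irak1-/- arrays were split, the nearest were 1700091H14Rik (0.36), A430107P09Rik (0.38), Gm2837 (0.41), Pisd-ps2 (0.45) and Mir28b (0.45), and none of them was among those nearest to Lyz2 or Saa3. The profiles were not scaled, so genes with small differences between the genotypes cannot lie near Lyz2 or Saa3, which were chosen with this contrast known. Nothing is read from which genes the lists share.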

How the data were processed

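Expression was measured on 8 Affymetrix arrays, 4 wt and 4 Irak1-/-, in sorted CD4+ T cells. RNA was extracted with TRIzol, per the labels' protocols. The authors deposited log2 levels for 41345 probe sets. How they corrected and normalized them is not stated in the labels or the file header. Of the probe sets, 23521 carried 1 symbol in the platform's annotation, 1814 several and 16010 none. Symbols were updated by gene identifier with the GRCm38.p6 table for 23328. Per gene the probe set with the highest mean was kept (22180 genes), and genes under the 40th percentile of the mean (3.90) were left out, which left 13308. Of the 9 genes, 6 passed, and Lyz2 did so only through its higher Irak1-/- arrays.

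The comparison used limma 3.58.1 under R 4.3.3 (lmFit, eBayes, batch number as block, two-sided, Benjamini-Hochberg over all tested genes, adjusted p under 0.05 called). The pairing comes from the labels: cells of a batch came from the same pooled recipients. Deviations from group means correlated within pairs at 0.185, 0.143, 0.2 and 0.0799. No arrays shared over 0.237% identical values. Depth does not exist for arrays, so their number limits the precision. The procedure was tested on simulated data. The genes and lists were chosen with earlier results of these data known. Named are the 9 genes, up to 4 genes per list with the smallest p, and 5 genes nearest in profile to each of 3 genes, and any other is given as a list member or neighbour. Alternatives changed normalization, block, filter, probe sets, variance model and arrays used.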

Additional observations from a re-analysis of the deposited data

Results flagged for a closer look

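The lowest or highest array of each group of 4 was compared with the rest by its gap over the range, for 43 genes and 9 marker lists in both genotypes, 104 groups in all. Chance flags about 1 in 20 groups, and 2 stood out. Chil3 read 2.86 on the wt array of replicate 1, while the other wt arrays read 4.45 to 4.51. Tyrobp read 5.96 on the wt array of replicate 3, while the other wt arrays read 5.2 to 5.23.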

How the results depend on the processing

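Under 14 alternatives, 5 to 7 of the 9 genes were higher in every pair. Where normalization or the arrays used were changed, the log2 differences of the 9 kept their sign and moved by less than the SD over pairs. Changes to the block, level filter, probe sets or variance model could not move these differences, so such settings are no check of them. Lyz2 and Saa3 were called under 14 of 14, Chil3 under 12 (not without the replicate block, nor without the Irak1-/- array of replicate 3 in a fit without pairs), S100a8 under 3 and S100a9 and Lcn2 under 0.

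The number of genes called was 9 higher and 1 lower. It was 14 and 2 with median centring, 14 and 2 with the replicate block as a random effect, 2 lower with the filter at the 60th percentile, and 3 lower with eBayes trend and robust settings. Leaving out arrays gave 6 higher (without replicate 2) to 17 (without replicate 1). In place of 0, the neutrophil list had 1 gene called with median centring, without the replicate block, with the block as a random effect and with trend and robust settings, and 0 to 1 with arrays left out. The macrophage list had 1 called with median centring, the stricter filter and trend and robust settings, 2 with the random block, and 0 to 1 with arrays left out. The acute-phase list had 0 to 1 with arrays left out, and the transcription factor and cytokine list, 1 as reported, 0 to 1, and 0 with the stricter filter. Each gain with arrays left out came without replicate 1, and each loss without replicate 2 or 4.

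With the stricter filter the medians were 0.108 for the neutrophil, -0.193 for the acute-phase and -0.0712 for the receptor list. With arrays left out, medians ran from 0.00395 to 0.0997 for the neutrophil, 0.18 to 0.323 for the macrophage and -0.124 to -0.0165 for the other S100 list. The stricter filter tests fewer genes, and other causes were not tested. No gene has more than 1 probe set among the 9, so testing every probe set changed no difference.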
